A study of Homo sapiens with 6 samples.

Results

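REST and the subunits of its corepressor complex were followed after knockdown of N6AMT1. The 10 genes were REST, the CoREST scaffolds RCOR1, RCOR2 and RCOR3, the SIN3 scaffolds SIN3A and SIN3B, the histone deacetylases HDAC1 and HDAC2, the histone demethylase KDM1A and the histone methyltransferase EHMT2. They were taken as a named list from a table of 62438 genes, and all 10 were among the 17320 genes with enough counts to be tested. The RNA came from a human breast cancer line labelled MDA-MB-453. The cells had received an siRNA to N6AMT1 (si-N6AMT1, n = 3) or a scrambled one (si-CN, n = 3) at 10 nM with a lipid reagent, and the labels give 48 h of transfection. By the labels both groups were the same line in the same medium and differed in the siRNA alone. Only 1 knockdown target and 1 time were examined, and the labels do not say whether the triplicates were separate cultures, so p-values cover the spread between these 6 libraries.

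REST is a zinc finger repressor that binds a DNA element called RE1 beside many neuronal genes and keeps them silent outside the nervous system. It brings SIN3 complexes to DNA through one end of the protein and CoREST complexes through the other. HDAC1 and HDAC2 remove acetyl groups from histones in both complexes, KDM1A (LSD1) removes methyl groups from lysine 4 of histone H3 and EHMT2 (G9a) adds them at lysine 9. RCOR1 to RCOR3 join KDM1A to the deacetylases. These subunits also serve repressors other than REST.

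Library totals ran from 19739247 to 21289740 counts. N6AMT1, the gene targeted, was measured at 6.93, 6.86 and 6.65 CPM (counts scaled by TMM to a common library size) in si-CN replicates 1 to 3 and at 3.08, 3.53 and 2.93 CPM in si-N6AMT1, a log2 fold change of -1.10 (SE 0.119, edgeR FDR = 3.65e-07). FDR is the Benjamini-Hochberg adjusted p of edgeR's quasi-likelihood test over all genes tested, and a gene was called at an FDR under 0.05. The label was checked against cell type markers. Of the luminal markers, SPDEF had 1 to 6 counts and KRT19 8 to 14 per library, while KRT8 (595 to 658 CPM) and KRT18 (450 to 490 CPM) were abundant. The basal markers KRT5 (755 to 838 CPM), KRT14 (105 to 128 CPM) and TP63 (206 to 232 CPM) were abundant too, so the line is named here only as labelled. All 3 basal markers were called higher in si-N6AMT1, where 9.78% of all tested genes were. Their summed level was 1073 to 1109 CPM in si-CN and 1171 to 1191 CPM in si-N6AMT1. The luminal keratins KRT8 (595 to 604 CPM in si-CN, 648 to 658 CPM in si-N6AMT1) and KRT18 (450 to 470 CPM and 480 to 490 CPM) were called higher as well. The luminal markers FOXA1 (log2 fold change -0.02, edgeR FDR = 0.933), KRT19 (0.04, edgeR FDR = 0.959) and XBP1 (-0.0047, edgeR FDR = 0.945) were not called. Among blood markers, PTPRC had 1 to 3 counts and CD3E 0 to 2, while CD68 was at 142 CPM in each si-CN library and at 196 to 204 CPM in si-N6AMT1. The part of these shifts in the results below was not tested, and in bulk RNA fewer cells with a transcript and less of it per cell cannot be told apart.

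REST fell and was the member with the smallest FDR. It stood at 91.4, 90.0 and 89.1 CPM in si-CN replicates 1 to 3 and at 80.7, 74.0 and 76.8 CPM in si-N6AMT1. The groups did not overlap, with every si-N6AMT1 library below the si-CN libraries. REST had a log2 fold change of -0.22 (SE 0.0334, 95% CI -0.29 to -0.16, edgeR FDR = 2.69e-05), a mean decrease of 14.4%, and it ranked 618 among the tested genes by p. REST was called lower under all 13 other settings tried, with log2 fold changes from -0.26 to -0.19. The gene lies at chr4:57774042-57832974 on the plus strand (hg19), and its reference transcript has 4 exons and 7309 bases. On the opposite strand it overlaps NOA1, a mitochondrial GTPase gene with 713 to 797 counts per library against 1511 to 1889 for REST. NOA1 had a log2 fold change of 0.02 (SE 0.0423, edgeR FDR = 0.777). The overlap is between the whole spans of the genes, and whether their exons overlap was not tested. Whether the counting used strand is not given in the sources used here, so a share of either gene's counts may belong to the other.

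**Figure D1:**
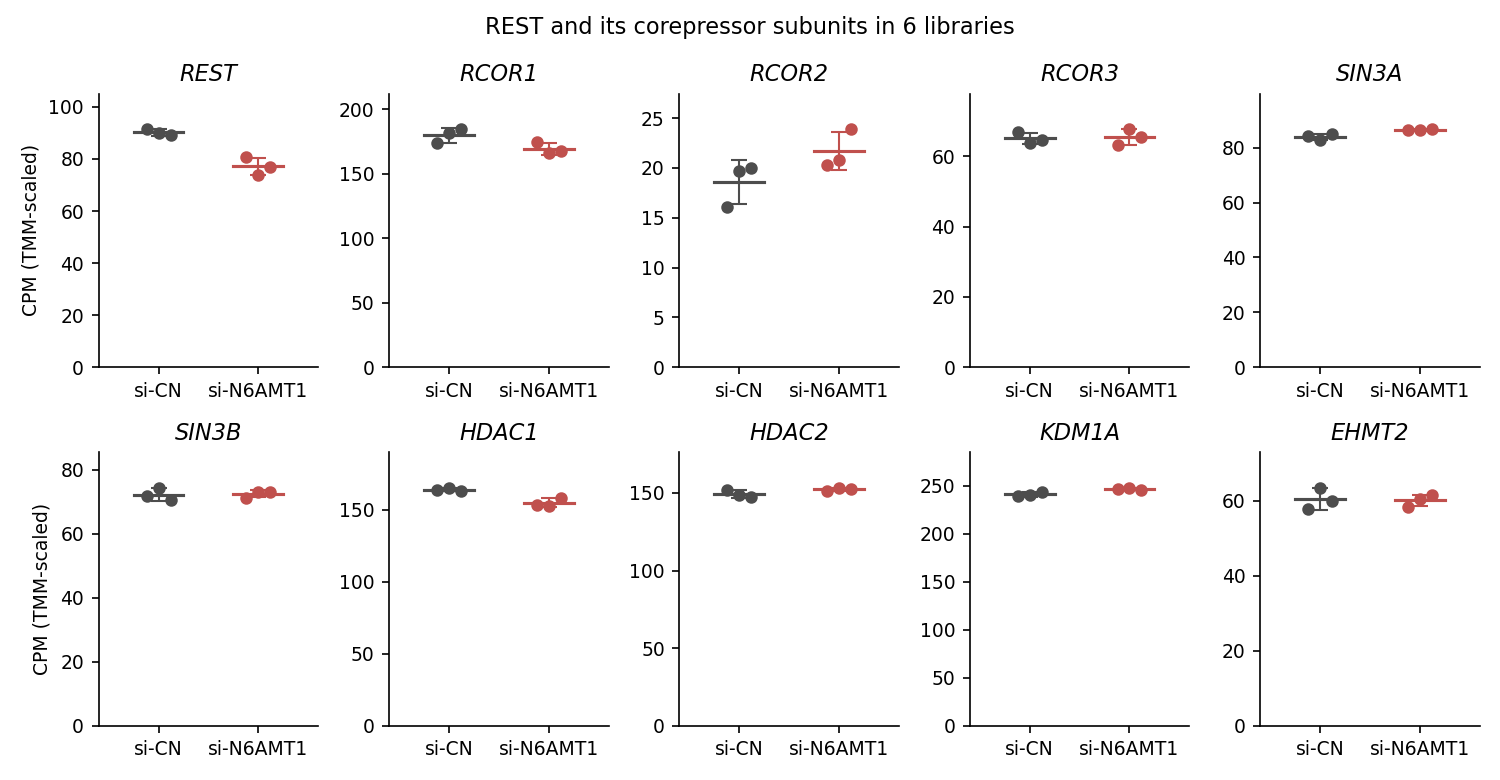
CPM (TMM-scaled, linear axes from 0) of each gene in the 3 si-CN (grey) and 3 si-N6AMT1 (red) libraries, with points for libraries, lines for group means and bars for 1 SD. REST lies at 89.1 to 91.4 CPM in si-CN and at 74.0 to 80.7 CPM in si-N6AMT1, while the groups overlap for RCOR1, RCOR3, SIN3B, HDAC2 and EHMT2.

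Of the 10 genes, 3 were called lower (REST, RCOR1 and HDAC1), where 11.5% of all tested genes were, and 1 was called higher (RCOR2), where 9.78% were. The libraries of both groups did not overlap for 5 genes, against 34.9% of all tested genes. The other 6 members were not called. The median log2 fold change over the members was 0.0079, and over all tested genes it was 0.0039.

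Of the CoREST scaffolds, RCOR1 was called lower and RCOR2 higher. RCOR1, the most abundant of the family, was measured at 174, 182 and 185 CPM in si-CN and at 175, 166 and 167 CPM in si-N6AMT1 (log2 fold change -0.09, SE 0.0278, edgeR FDR = 0.0241). Its groups overlapped, since si-CN replicate 1 lay below si-N6AMT1 replicate 1. RCOR2, best known from stem cells and neural progenitors, was at 16.10, 19.70 and 19.99 CPM in si-CN and at 20.3, 20.8 and 23.9 CPM in si-N6AMT1 (log2 fold change 0.22, SE 0.0770, edgeR FDR = 0.0449). Its groups did not overlap, but the gap between them was small next to the distance of si-CN replicate 1 and si-N6AMT1 replicate 3 from the others. RCOR3, which has been described as a competitor of RCOR1, gave 63.8 to 66.8 CPM in si-CN and 63.3 to 67.7 CPM in si-N6AMT1. Its log2 fold change was 0.01 (95% CI -0.06 to 0.08, edgeR FDR = 0.893).

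The calls for RCOR1 and RCOR2 were not stable. RCOR1 was called in 6 of the 13 other settings. It was not called by DESeq2 (FDR = 0.0714), with the replicate number as a block (edgeR FDR = 0.0501), with that block and a GC correction (edgeR FDR = 0.117), or without si-CN replicate 2, si-CN replicate 3, si-N6AMT1 replicate 2 or si-N6AMT1 replicate 3 (edgeR FDR from 0.0842 to 0.154). RCOR2 was called in 7 of the 13. Its log2 fold change dropped to 0.13 without si-CN replicate 1 (edgeR FDR = 0.256) and to 0.14 without si-N6AMT1 replicate 3 (edgeR FDR = 0.266), and the call was also lost without si-N6AMT1 replicate 2 (edgeR FDR = 0.0518). DESeq2 gave RCOR2 an FDR of 0.11, limma-voom 0.0503 and the replicate block with GC correction 0.0726.

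The scaffolds of the SIN3 complex gave no calls. SIN3A was at 84.3, 82.8 and 85.0 CPM in si-CN and at 86.5, 86.4 and 86.8 CPM in si-N6AMT1. All si-N6AMT1 libraries lay above all si-CN libraries, but the log2 fold change was 0.04 (95% CI -0.02 to 0.10, edgeR FDR = 0.359). SIN3B was at 70.5 to 74.4 CPM in si-CN and 71.2 to 73.2 CPM in si-N6AMT1, and the groups overlapped (log2 fold change 0.01, 95% CI -0.06 to 0.07, edgeR FDR = 0.928).

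Of the deacetylases, HDAC1 was measured at 164, 166 and 163 CPM in si-CN and at 153, 153 and 159 CPM in si-N6AMT1. The groups did not overlap, and the log2 fold change was -0.08 (SE 0.0252, edgeR FDR = 0.0205). HDAC1 was called lower in 8 of the 13 other settings. It was not called by DESeq2 (FDR = 0.0844), nor without si-CN replicate 2, si-CN replicate 3, si-N6AMT1 replicate 1 or si-N6AMT1 replicate 2 (edgeR FDR from 0.0562 to 0.0944). HDAC2, its close paralog, was at 147 to 152 CPM in si-CN and 152 to 153 CPM in si-N6AMT1 with overlapping groups (log2 fold change 0.03, 95% CI -0.02 to 0.08, edgeR FDR = 0.468).

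The lysine-modifying enzymes did not change beyond the test's threshold. KDM1A was at 239, 241 and 244 CPM in si-CN and at 246, 248 and 246 CPM in si-N6AMT1. The si-N6AMT1 libraries were all above the si-CN libraries, with a log2 fold change of 0.03 (95% CI -0.01 to 0.08, edgeR FDR = 0.345). EHMT2 was at 57.9 to 63.5 CPM in si-CN and 58.4 to 61.5 CPM in si-N6AMT1 with overlapping groups (log2 fold change -0.01, 95% CI -0.09 to 0.07, edgeR FDR = 0.923). Antisense genes overlap EHMT2 and HDAC2, but EHMT2-AS1 (7 to 16 counts) and HDAC2-AS2 (18 to 39 counts) reached at most 1.41% and 1.25% of the counts of the member. For the 6 genes that were not called, the 95% intervals lay between -0.09 and 0.10 on the log2 scale, and none was called under any other setting.

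**Figure D2:**
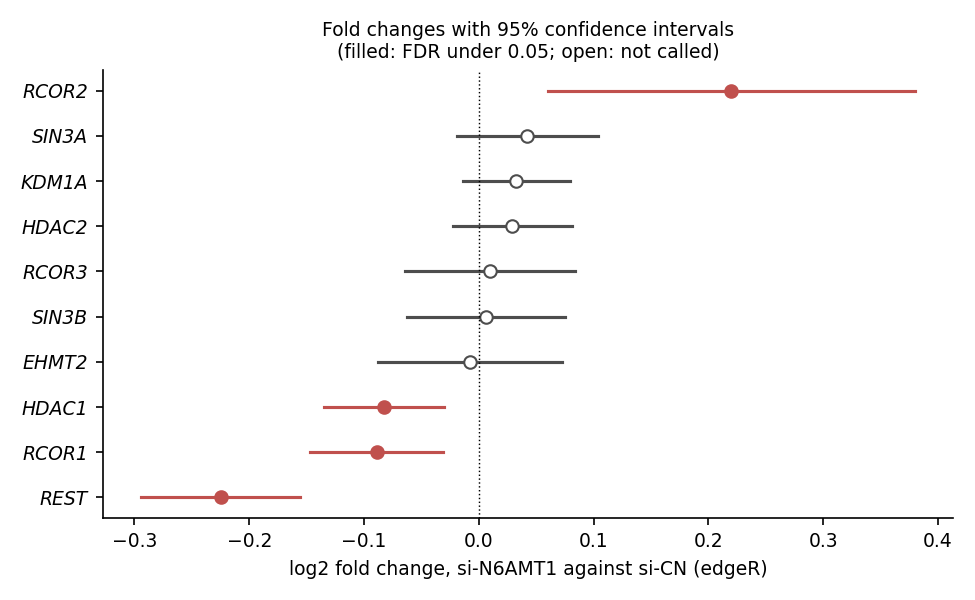
Log2 fold change of each gene in si-N6AMT1 against si-CN (edgeR, 3 libraries per group) with its 95% confidence interval, filled where the FDR was under 0.05. REST (-0.22) and RCOR2 (0.22) lie farthest from 0, and the interval of RCOR2 (0.06 to 0.38) is the widest.

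Ratios between genes of the same library do not depend on how libraries were scaled. These ratios were chosen after the values had been seen. The ratio of REST counts to those of KDM1A was 0.365 to 0.383 in si-CN and 0.299 to 0.328 in si-N6AMT1 (mean log2 difference -0.26). To RCOR1 it was 0.482 to 0.527 in si-CN and 0.446 to 0.463 in si-N6AMT1 (-0.14 on the log2 scale). Both ratios were lower in every si-N6AMT1 library than in any si-CN library. For each of these ratios the two-sided exact permutation test gave p = 0.1, the smallest p that 3 libraries against 3 allow.

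Shares within paralog families were computed per length of the reference transcript. Of the RCOR transcripts, RCOR1 made up 59.9% ± 0.274 (SD, n = 3) in si-CN. In si-N6AMT1 it made up 57.2% ± 1.59 (SD, n = 3). RCOR2 went from 12.2% ± 1.12 (SD, n = 3) to 14.4% ± 1.18 (SD, n = 3). Of the HDAC1 and HDAC2 transcripts, HDAC1 went from 83.5% ± 0.249 (SD, n = 3) to 82.4% ± 0.313 (SD, n = 3). None of these 3 shares overlapped between groups, and each gave p = 0.1 (two-sided exact permutation test, the smallest possible). The share of RCOR3 (27.9% in si-CN and 28.4% in si-N6AMT1, exact permutation p = 0.5) overlapped. The shares of RCOR2 and RCOR3 were not planned, and shares within a family are not separate results. The share of SIN3A (46.6% and 47.2%, exact permutation p = 0.4) and that of EHMT2 with its partner EHMT1 (56.2% and 54.9%, exact permutation p = 0.2) overlapped between groups. The high share of HDAC1 rests on the length of the HDAC2 reference transcript, 9737 bases with a 3′ UTR of 8030 bases. By counts alone HDAC1 made up 52.4% in si-CN.

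Levels per length spanned about an order of magnitude. TPM, a unit of transcript abundance that allows for length, was estimated from the counts and the length of each reference transcript. In si-CN, KDM1A (174 TPM) and HDAC1 (172 TPM) were highest and did not differ beyond their spread. RCOR1 followed at 69.6 TPM. HDAC2 (34.1 TPM), EHMT2 (33.8 TPM), RCOR3 (32.3 TPM) and SIN3B (31.9 TPM) followed, and each overlapped its neighbour in that order. SIN3A (27.8 TPM) and REST (27.4 TPM) overlapped as well, and RCOR2 was lowest at 14.2 TPM. In si-N6AMT1, REST fell to 23.4 TPM and no longer overlapped SIN3A at 28.6 TPM. REST ranked 5378 of 20019 protein-coding genes in si-CN.

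**Figure D3:**
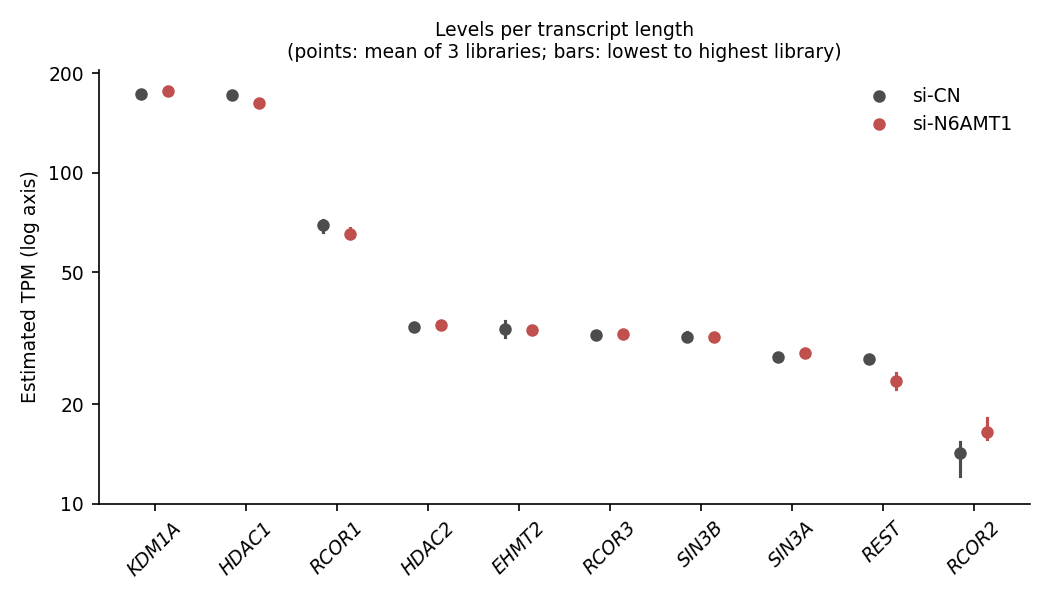
Estimated TPM of each gene on a log axis, ordered by its mean in si-CN, with points for the mean of 3 libraries and bars from the lowest to the highest library. KDM1A and HDAC1 lie near 174 and 172 TPM in si-CN, REST falls from 27.4 to 23.4 TPM and RCOR2 is lowest in both groups.

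The genes whose pattern over the 6 libraries was most like that of REST were TYMS, PARP1, KDM3B, ATAD2 and CSNK2A2. Likeness was the root mean square difference in log2 CPM after each gene was centred on its own mean. It was 0.0141 for TYMS, thymidylate synthase, and 0.0203 for CSNK2A2, a catalytic subunit of casein kinase 2, where the median over all tested genes was 0.160. By the same measure the spread of REST about its own mean was 0.119, the value that a flat gene would give. All 5 were called lower, with log2 fold changes from -0.25 to -0.19. They were picked for a pattern that holds the group difference of REST, so their direction and size follow from the choice.

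The 3′ UTRs of the members were searched for TTCACAT and TCACATA on the transcribed strand. These 7-base sequences had been picked earlier from the fold changes of these same libraries, so their presence is a description only. REST held 2 sites, both in its last exon, and RCOR3, SIN3A and HDAC2 held 1 each. They are shown to place REST beside members that have a site and were not called. The site is in capitals, with 11 bases on each side, in the direction of transcription (hg19):
REST, chr4:57801055-57801083, plus strand: ttgaacctgtaTTCACATtggttttcaag
REST, chr4:57801607-57801635, plus strand: gcttttacagtTTCACATgtgtacatagg
RCOR3, chr1:211488539-211488567, plus strand: atgtttgcacaTTCACATtcttatcacgt
SIN3A, chr15:75662993-75663021, minus strand: attttttcttaTTCACATtggtgatggat
HDAC2, chr6:114255589-114255617, minus strand: tgcactggaaaTCACATAtatgggtctag

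The REST sites lay 2748 and 3300 bases after the stop codon of a 3′ UTR of 3692 bases. Of 1558 tested genes with a 3′ UTR within 20% of that length, 42.7% held at least 1 site and 11.1% at least 2. Over 13310 tested protein-coding genes the share with a site was 22.2%. RCOR1 and HDAC1, the other members called lower, held no site in 3′ UTRs of 4055 and 582 bases. RCOR3, SIN3A and HDAC2 held 1 site each and had log2 fold changes of 0.01, 0.04 and 0.03. A match of letters does not show that a site is used.

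**Figure D4:**
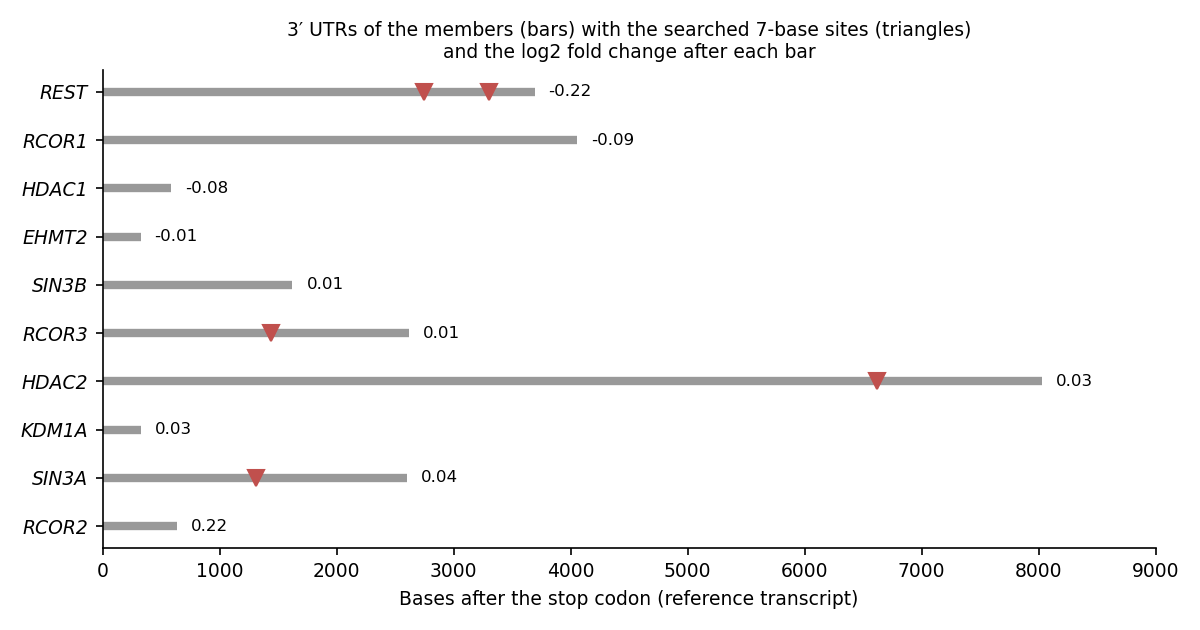
The 3′ UTR of each reference transcript drawn to scale in bases after the stop codon (grey bars), with the 7-base sites as red triangles and the log2 fold change in si-N6AMT1 behind each bar. REST, at the top, has 2 sites and -0.22, while RCOR1 and HDAC1 have none at -0.09 and -0.08.

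Other partners of CoREST and EHMT2 were read from a list of 16 genes, all tested. Of these, 2 were called lower and 1 higher, where 11.5% and 9.78% of all tested genes were, and 13 were not called, with a median log2 fold change of -0.0011. HMG20B, a subunit of the CoREST complex, rose (85.0 to 94.7 CPM, log2 fold change 0.16, SE 0.0333, edgeR FDR = 0.0014). The zinc finger factor RREB1 fell (log2 fold change -0.12, edgeR FDR = 0.013). ZNF217, a factor that recruits CoREST, had a log2 fold change of 0.05 and was not called (edgeR FDR = 0.115). Without si-CN replicate 2 no gene of the list was called lower, and 1 was under DESeq2 or without si-N6AMT1 replicate 2.

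Of 19 other SIN3 subunits, 3 were called lower and 2 higher (11.5% and 9.78% of all tested genes), and the median was -0.0093. SAP30, a subunit that joins SIN3 to the deacetylases, had the greatest decrease of those called (16.8 to 14.3 CPM, log2 fold change -0.23, SE 0.0699, edgeR FDR = 0.0196). ARID4B (-0.09, edgeR FDR = 0.0212) fell too. MORF4L1, a chromodomain protein (0.10, edgeR FDR = 0.00571), and PHF12 (0.12, edgeR FDR = 0.0149) rose. ING2, which reads methylated lysine 4 of histone H3, was the other lower gene and is named because the count is small (-0.16, edgeR FDR = 0.0466). Without si-CN replicate 3, or without si-N6AMT1 replicate 3, none was called lower. Only 1 was without si-CN replicate 2, without si-N6AMT1 replicate 1 or with the replicate block and GC correction. DESeq2 called 0 lower and 1 higher.

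REST protein is marked for destruction by casein kinase 1 and the SCF ubiquitin ligase with its receptor BTRC, and is spared by deubiquitinases. Of 19 genes that act on REST protein or its splicing, 3 were called lower and 5 higher, where 11.5% and 9.78% of all tested genes were, with a median of -0.0049. The ligase subunits RBX1 (32.2 to 37.6 CPM, log2 fold change 0.23, SE 0.0459, edgeR FDR = 0.000873) and CUL1 (57.5 to 64.2 CPM, log2 fold change 0.16, SE 0.0337, edgeR FDR = 0.00143) rose. USP15, a deubiquitinase, fell (81.8 to 73.6 CPM, log2 fold change -0.15, SE 0.0328, edgeR FDR = 0.00155). CSNK1E, a casein kinase, rose (log2 fold change 0.10, edgeR FDR = 0.00601). The others called were BTRC (-0.22, edgeR FDR = 0.0198) and CSNK1A1 (-0.07, edgeR FDR = 0.0299), both lower, and the phosphatases CTDSP1 (0.11, edgeR FDR = 0.0258) and CTDSPL (0.11, edgeR FDR = 0.0192), both higher. These 4 were named after their values had been seen. SCF subunits and casein kinases act on many proteins, and REST protein was not measured in these libraries. DESeq2 called 1 lower and 3 higher, and the same counts were found without si-CN replicate 1 and without si-N6AMT1 replicate 2. The number called higher was also 3 without si-CN replicate 3 and with the replicate block and GC correction.

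Genes known as REST targets were mostly low in these cells. Of 51 listed neuronal and secretory genes, 30 could be tested, 31 had a mean under 1 CPM and 4 had no count. SNAP25, a synaptic fusion protein, had a mean of 0.167 CPM in si-CN and CHGA, a granule protein, 0.0665 CPM. Of the 30 tested genes, 4 were called higher and 1 lower, where the shares of all tested genes were 9.78% and 11.5%. The 4 higher genes were CELSR3, SCAMP5, BSN and TRIM9. CELSR3, an adhesion receptor, was at 37.5, 39.0 and 37.6 CPM in si-CN and at 44.3, 41.2 and 44.6 CPM in si-N6AMT1 (log2 fold change 0.19, SE 0.0432, edgeR FDR = 0.00235). SCAMP5, a secretory carrier protein, was at 5.30, 4.57 and 4.53 CPM and then at 6.81, 6.42 and 6.53 CPM (log2 fold change 0.46, SE 0.109, edgeR FDR = 0.00367). Neither gene's groups overlapped. BSN, a scaffold of the presynaptic active zone, rose by 0.29 (SE 0.0896, edgeR FDR = 0.0224). TRIM9, a brain-enriched ubiquitin ligase that is named because the count is small, rose by 0.96 from 0.462 to 0.906 CPM (SE 0.323, edgeR FDR = 0.0367). TRIM9 had 11, 7 and 10 counts in si-CN and 18, 20 and 17 in si-N6AMT1. It passed the expression filter only through si-N6AMT1, the group where it was higher. SYT7, a calcium sensor of exocytosis, fell from 19.0 to 16.4 CPM (log2 fold change -0.21, SE 0.0681, edgeR FDR = 0.0268). The count of higher genes was 2 under DESeq2, without si-CN replicate 2 or without si-N6AMT1 replicate 3. It was 3 under some other settings, testing without the expression filter among them. SYT7 was not called under DESeq2, nor without si-CN replicate 1, si-CN replicate 3, si-N6AMT1 replicate 2 or si-N6AMT1 replicate 3.

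The median log2 fold change of the 30 tested targets was 0.15, beside 0.0039 over all tested genes. It ran from 0.08 to 0.16 over 12 other settings, all but testing without the expression filter. That range therefore cannot show how far the median depends on the filter. TRIM9, one of the 10 tested targets under 1 CPM, passed the filter only through the group where it was higher. The median differed with level, a split made after the values had been seen. For the 9 targets at 10 CPM or more the median was 0.05, beside -0.0039 for all genes at that level. For the 11 targets at 1 to 10 CPM it was 0.19, beside 0.02, and for the 10 targets under 1 CPM it was 0.28, beside 0.04. The abundant targets CALB1 (134 CPM over all libraries, log2 fold change 0.06, edgeR FDR = 0.138), L1CAM (119 CPM, 0.05, edgeR FDR = 0.294) and VAMP2 (53.3 CPM, 0.01, edgeR FDR = 0.896) were not called. Summed over all 51 genes, tested or not, the targets stood at 511, 495 and 507 CPM in si-CN and at 531, 527 and 528 CPM in si-N6AMT1, of which CALB1 alone gave 25.9%. The summed level was higher in every si-N6AMT1 library than in every si-CN library, and 31 of the 47 targets with any count had a higher summed CPM in si-N6AMT1, as did 19872 of all 39446 genes with any count.

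**Figure D5:**
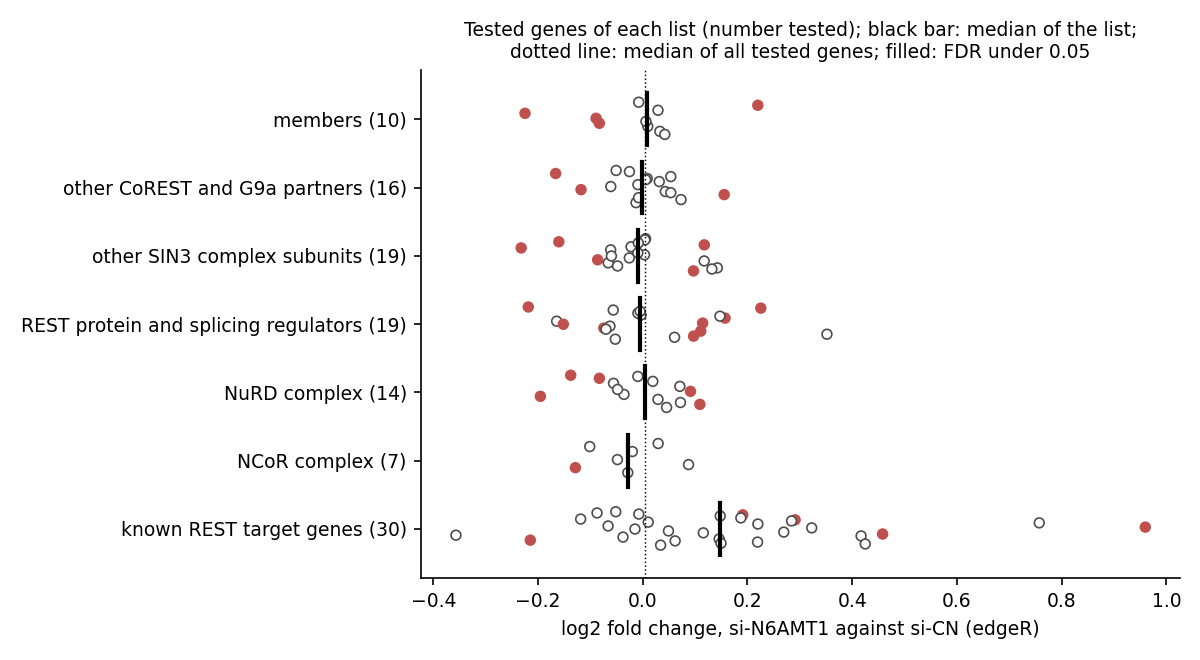
Log2 fold change in si-N6AMT1 against si-CN of every tested gene in each list (number tested behind the list's name), with calls filled in red, list medians as black bars and the median of all tested genes as a dotted line. The medians of the complexes lie between -0.03 and 0.01 and that of the known REST targets lies at 0.15.

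RE1 elements were also sought by sequence. The motif CAGCACCNNGGACAG, which leaves out weaker forms of RE1, was matched exactly on both strands of hg19. The bases beside the motif were left free, and a match of letters does not show that REST binds there. The motif occurred at 818 sites in the genome and within 2 kb of the start of 111 protein-coding genes, 0.55% of them all. Among the 51 known targets, 16 (31.4%) held one, and none of the 10 members did. Sites are printed for the genes called and for some targets with a well-known element. These targets, GRIN1, SCN2A and SYP, lie outside the fixed rule for named genes. Capitals mark the fixed letters of the motif, read in its own direction with 7 bases on each side:
GRIN1, chr9:140033714-140033728, untranslated exon: cccgcttCAGCACCgcGGACAGcgccggc
SCN2A, chr2:166094996-166095010, upstream: tggttctCAGCACCatGGACAGcgttact
SYP, chrX:49056585-49056599, intron: cgcgctcCAGCACCgtGGACAGagcccgc
DNAJC6, chr1:65775602-65775616, coding exon: accgcgcCAGCACCatGGACAGctcaggt
ECSIT, chr19:11639440-11639454, intron: gtgtctcCAGCACCaaGGACAGtgcctgg
MAD2L1BP, chr6:43603277-43603291, upstream: ctgtctcCAGCACCtaGGACAGggcctgg

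Of the 111 genes, 31 could be tested, 2 were called higher and 1 lower, where 9.78% and 11.5% of all tested genes were. Their median log2 fold change was 0.11, beside 0.0039 over all tested genes. It was 0.02 for the 13 genes at 10 CPM or more, 0.11 for the 11 genes at 1 to 10 CPM and 0.22 for the 7 genes under 1 CPM. ECSIT, a signalling and mitochondrial assembly factor, rose from 19.3 to 22.2 CPM (log2 fold change 0.20, SE 0.0589, edgeR FDR = 0.0149). MAD2L1BP, a regulator of the spindle checkpoint, rose from 14.1 to 16.3 CPM with overlapping groups (0.22, SE 0.0770, edgeR FDR = 0.0463). DNAJC6, a clathrin uncoating factor, fell from 16.8 to 13.6 CPM (-0.31, SE 0.0671, edgeR FDR = 0.00172). The receptor subunit GRIN1 stood at 1.09 CPM in si-CN and 1.46 CPM in si-N6AMT1 (0.42, SE 0.235, edgeR FDR = 0.227), the channel SCN2A at 1.08 and 1.25 CPM (0.22, edgeR FDR = 0.631) and the vesicle protein SYP at 0.546 and 0.658 CPM (0.27, edgeR FDR = 0.635). None of these 3 was called, and at about 20 counts per CPM in each library their errors were wide. SLC12A5, another tested target with a site, stood at 0.726 CPM in si-CN and 0.708 CPM in si-N6AMT1 (-0.04, edgeR FDR = 0.954). CALB1, given above, held a site as well. With 5 kb in place of 2 kb, 53 of 165 genes could be tested, 7 were called higher and 1 lower (9.78% and 11.5% of all tested genes), and the median was 0.11.

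Complexes that share subunits with CoREST and SIN3 were read for comparison. Of the 14 NuRD genes, 3 were called lower and 2 higher (11.5% and 9.78% of all tested genes), HDAC1 among the lower genes, with a median of 0.0050. CHD3, a remodelling ATPase, fell most (226 to 198 CPM, log2 fold change -0.20, SE 0.0253, edgeR FDR = 4.32e-06). CDK2AP1 fell (-0.14, edgeR FDR = 0.000586) and GATAD2A rose (0.11, edgeR FDR = 0.0256). No NuRD gene was called higher under DESeq2, without si-CN replicate 3 or without si-N6AMT1 replicate 3, and 1 was without any other single library except si-CN replicate 2, or with the replicate block and GC correction. Of the 7 genes of the NCoR complex list, TBL1XR1 was called lower (-0.13, edgeR FDR = 0.000665) and none higher, with a median of -0.03. Without si-CN replicate 1 there was 1 higher, and with the replicate block and GC correction 2 lower. The scaffold NCOR1 (-0.03, edgeR FDR = 0.485) and the subunit GPS2 (0.09, edgeR FDR = 0.0953) were not called.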

How the data were processed

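RNA-seq libraries, 3 of si-N6AMT1 and 3 of si-CN, were grouped by their labels. The authors trimmed reads with Trim Galore, quantified transcripts with kallisto v0.46.0 on GENCODE models (hg19) and added up the transcripts of each gene. The authors deposited the resulting estimated counts (expected counts) as whole numbers, not normalized. Because kallisto divides reads among similar transcripts, counts of paralogs and overlapping genes are uncertain.

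Tests used edgeR v4.0.16 under R v4.3.3 (expression filter with a minimum count of 10, TMM scaling, quasi-likelihood test without covariates, Benjamini-Hochberg FDR threshold of 0.05). On simulated counts with 1.5-fold changes this procedure recovered 70.3% of the changed genes, and 3.52% of its calls were false. Smaller changes, such as those of the members, were not simulated. CPM use TMM. An SE is the size of the log2 fold change over the root of its F statistic. By chi-square over its degrees of freedom, libraries of 1 group differed by 1.36 to 1.77 and those of different groups by 6.85 to 7.81, so each pair differed by more than counting noise. The biological coefficient of variation was 1.85%, and whether libraries came from separate cultures is not shown by these values. At 1 CPM a gene had 19.7 to 21.3 counts per library. Transcripts, 3′ UTRs and coordinates came from GENCODE v44 lifted to GRCh37 (hg19), and TPM and shares used the length of its reference transcript.

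The members and gene lists were chosen with earlier results of these data known. Named genes were N6AMT1, every member, the 4 genes with the smallest FDR in each list, the 4 most abundant known REST targets, the 5 genes most like REST and genes overlapping a member; others are said to be named later. Alternatives were RLE size factors, DESeq2 v1.42.0, limma-voom (limma v3.58.1), a replicate block with and without GC correction, testing without the expression filter, library sizes without mitochondrial genes, and dropping each library in turn. 6mA, qPCR and xenograft data were not analysed here. A few genes are not reported here.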

Additional observations from a re-analysis of the deposited data

How the results depend on the processing

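REST and N6AMT1 were called lower under all 13 alternatives. RCOR1 lost its call under DESeq2 (-0.089 on the log2 scale), the replicate block (-0.089) and the replicate block with GC correction (-0.075), and ran from -0.11 to -0.069 with 1 library left out. RCOR2 lost it under DESeq2 (0.22), limma-voom (0.22) and the replicate block with GC correction (0.17), and ran from 0.13 to 0.28 with 1 library left out. HDAC1 lost it under DESeq2 (-0.083) and ran from -0.10 to -0.073 with 1 library left out. Of the members not called, SIN3B turned to -0.037 under the replicate block with GC correction, and with 1 library left out RCOR3 ran from -0.015 to 0.035, SIN3B from -0.0099 to 0.028 and EHMT2 from -0.037 to 0.028. The number of members called lower was 1 under DESeq2 and 1 to 3 with 1 library left out, and the number called higher was 0 under DESeq2, limma-voom and the replicate block with GC correction and 0 to 1 with 1 library left out. Genes with an RE1 sequence called higher numbered 7 within 5 kb, where more genes were tested. Over all genes DESeq2 called 1275 lower and 955 higher, where edgeR called 1993 and 1694. Fits with 1 library left out rest on fewer libraries, yet not every FDR rose. RCOR1 had an edgeR FDR of 0.00496 without si-CN replicate 1, beside 0.0241 with all libraries. The cause of the changes between settings was not tested.

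The replicate numbers did not pair the libraries (correlations of deviations -0.038, -0.042 and 0.010 for replicates 1 to 3). With the replicate block 2 members were called lower and 1 higher, and REST stood at -0.22 (edgeR FDR = 3.7e-05). With 3 libraries per group of 19739247 to 21289740 counts, the called log2 changes under 0.1 in size (RCOR1 and HDAC1) did not keep their calls throughout.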

Other observations

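The primer list of the study gives 2 pairs for REST, and both were sought on chromosome 4 of hg19 by exact match. The RT-qPCR pair was also sought in all annotated transcripts. The rest of the genome was not searched. The pair for immunoprecipitation with an antibody to 6mA lies within the last exon of REST, exon 4 of 4, at chr4:57796322-57796607, and starts 22256 bases after the transcript start. The pair listed for RT-qPCR of REST is shown because neither of its primers matched any of 12 REST transcripts:
forward, 5′ to 3′: tctcggaggtggagtacctg
reverse, 5′ to 3′: cccagtaaacgaggtgaccaaa

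Both primers matched 1 transcript of ARRDC4, a gene of the arrestin-domain family, on chr15:98504345-98509149 from exon 1 to exon 3, with a product of 146 bases. Of 10 RT-qPCR pairs in the list, 7 had both primers in a transcript of the gene they are listed for and 3 did not. In these libraries ARRDC4 stood at 49.6, 49.9 and 48.4 CPM in si-CN and at 50.5, 52.3 and 52.3 CPM in si-N6AMT1 (log2 fold change 0.07, SE 0.0372, edgeR FDR = 0.209), beside -0.22 for REST. The groups did not overlap, and ARRDC4 was not called. Whether the primers used at the bench were those in the list was not tested. This search was made after the data had been seen.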
